A study of Homo sapiens with 12 samples.

Results

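The effect of hypoxia on dim KG1a cells was followed in 6 of the 12 libraries of the series, 3 from dim cells kept in normoxia and 3 from dim cells kept at 3% oxygen. KG1a is a human cell line, established from an acute myeloid leukaemia, that keeps CD34 and other traits of immature blood cells, and the line is labelled wild type here. The cells grew in RPMI medium with fetal bovine serum and were sorted as CD34-positive cells dim for both CD38 and CLL-1 (dim) or bright for both (bright). The 6 bright libraries, again 3 in normoxia and 3 at 3% oxygen, share no library with the dim comparison and are used below as a second measurement of the response to the same oxygen level. The labels give neither the time in hypoxia nor the oxygen level of normoxia nor the origin of the replicates, so p-values measure the spread between these libraries, which may be technical. The comparison took every gene that reached a normalized value of 10 in at least 3 of the 12 libraries, 15057 of 28395 genes.

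Cells read oxygen through prolyl hydroxylases of the EGLN family, which mark the alpha subunits of hypoxia-inducible factor (HIF) for destruction by the VHL ubiquitin ligase while oxygen is present. When oxygen falls, HIF1A or EPAS1 pairs with ARNT and binds DNA at a short core, ACGTG or GCGTG, near genes of glucose uptake, glycolysis, angiogenesis, mitophagy and iron uptake. In haematopoietic stem cells and leukaemia cells this programme is known for its link with the low oxygen of the bone marrow.

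The dim libraries held an estimated 27100000 to 39500000 counted reads, and 17395 to 18051 genes had a value above 0. Both were lowest in normoxic dim replicate 3. Normalized values summed to between 31828256 and 32474979. As these values were already scaled, their sums do not measure depth. All values below are normalized read counts per library, listed as replicates 1, 2 and 3, and fold changes are log2 differences of the value plus 1 with their standard error, n = 3 per group. Transcripts that mark other tissues were present at unequal levels. The sum of 20 airway epithelium markers was 283, 209 and 234 in normoxic dim cells and 1257, 19732 and 6285 in hypoxic dim cells, so that all hypoxic libraries lay above all normoxic ones. In hypoxia KRT18, MUC5B and KRT8 made up most of it, in normoxia KRT7 did (164, 159 and 132), and the airway secretory genes SCGB1A1, SCGB3A1 and SFTPB were at 0 in all 6 dim libraries. Among bright cells the same sum was higher in normoxia (3785, 7806 and 306) than in hypoxia (333, 1217 and 84) for most libraries, the reverse of the order in dim cells.

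The sum of 24 skeletal muscle markers ran the other way in dim cells, at 5318, 1293 and 2069 in normoxia and 558, 684 and 585 in hypoxia. DES, the muscle intermediate filament protein desmin, was its highest member in normoxia and was at 2512, 496 and 862 there and at 64, 91 and 51 in hypoxia, where MYH3, an embryonic myosin heavy chain, was at 248, 242 and 286. The sum of 14 fibroblast markers was 11038, 3833 and 4100 in normoxic and 2692, 1982 and 1721 in hypoxic dim cells, again without overlap. The sum of 14 neutrophil granule genes was 7524, 7545 and 6943 in normoxia and 22634, 7828 and 6830 in hypoxia, so hypoxic dim replicate 1 stood alone. In the other 5 dim libraries nearly all of it was PRSS57, a serine protease of granules, at 7447, 7435 and 6770 in normoxia and 7433, 7659 and 6548 in hypoxia. In hypoxic dim replicate 1 PRTN3 was at 7043, MPO at 4618, AZU1 at 1936 and ELANE at 1526, while DEFA1, DEFA3, DEFA4 and LTF were at 0 in all 6 dim libraries. Sums of endothelial (4055 to 5318), erythroid (69 to 145), melanocyte (35 to 75) and B cell markers (12480 to 16372) overlapped between normoxic and hypoxic dim libraries, and most of the last came from IGHM, with CR2 at 0. In bulk RNA, more cells of a type and more RNA per cell cannot be told apart.

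**Figure D1:**
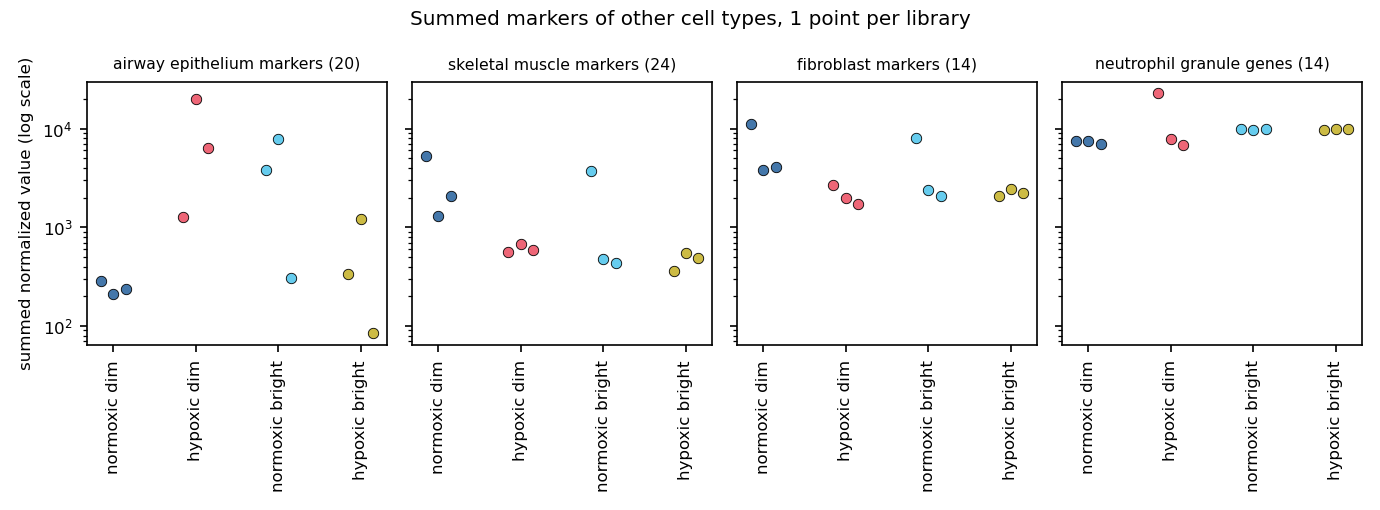
Summed normalized values of 4 marker lists on a log axis, 1 point per library, in the 4 groups. The hypoxic dim libraries lie above the normoxic dim ones for airway epithelium markers and below them for skeletal muscle and fibroblast markers, and 1 hypoxic dim library stands apart at 22634 for neutrophil granule genes.

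Of the sort markers, CD38 was lower in every dim than in every bright library, while CLEC12A overlapped between the subsets. CD34 was at 18117, 20882 and 20265 in normoxia and 17184, 19897 and 19235 in hypoxia, with overlapping groups and a log2 change of -0.07 ± 0.08. CLEC12A, which encodes CLL-1, was at 27, 13 and 15 in normoxia and 40, 9 and 14 in hypoxia, against 9 to 33 in bright libraries. CD38 was at 6, 7 and 2 in normoxia and at 25, 9 and 13 in hypoxia, without overlap, against 60 to 161 in bright libraries. Its log2 change was 1.48 ± 0.42, which did not pass (limma, Benjamini-Hochberg adjusted p = 0.136).

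Few genes passed for hypoxia in dim cells. At a Benjamini-Hochberg adjusted p under 0.05 in limma, 35 of 15057 genes passed, 0.232% of those tested. Of these, 30 rose in hypoxia (0.199%) and 5 fell (0.0332%). With shares this small, a short list with no passing member is not set apart from all genes by that count. All 35 had values that did not overlap between the groups, which held for 9.08% of all tested genes in the higher direction and 8.4% in the lower direction. At an unadjusted p under 0.05 limma gave 2626 genes, 1277 of them higher (8.48%) and 1349 lower (8.96%), and the median log2 change of all tested genes was 0.00. In bright cells 126 genes passed (0.837%), 72 higher (0.478%) and 54 lower (0.359%), and for 355 genes (2.36%) the effect of hypoxia differed between bright and dim cells. The number of calls moved with single libraries. Without hypoxic dim replicate 2, the library highest in airway epithelium markers, no gene passed in limma, with 1684 genes at an unadjusted p under 0.05. In that fit the log2 changes were -0.94 for TFRC, 0.59 for KIFC3 and 5.92 for COL4A5. Without normoxic dim replicate 2 or 3 a single gene passed each time, without normoxic dim replicate 1 there were 54 and without hypoxic dim replicate 3 there were 637. With normoxic dim replicate 1 and hypoxic dim replicate 2 both left out, the libraries highest in skeletal muscle and in airway epithelium markers, no gene passed in limma (1883 at an unadjusted p under 0.05), and the log2 changes were -1.05 for TFRC, 0.58 for KIFC3 and 6.53 for COL4A5. In every alternative in which they were tested, the 35 genes kept the sign of their change. As their values did not overlap, leaving out libraries or changing the filter, trend or pseudocount could not turn it.

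**Figure D2:**
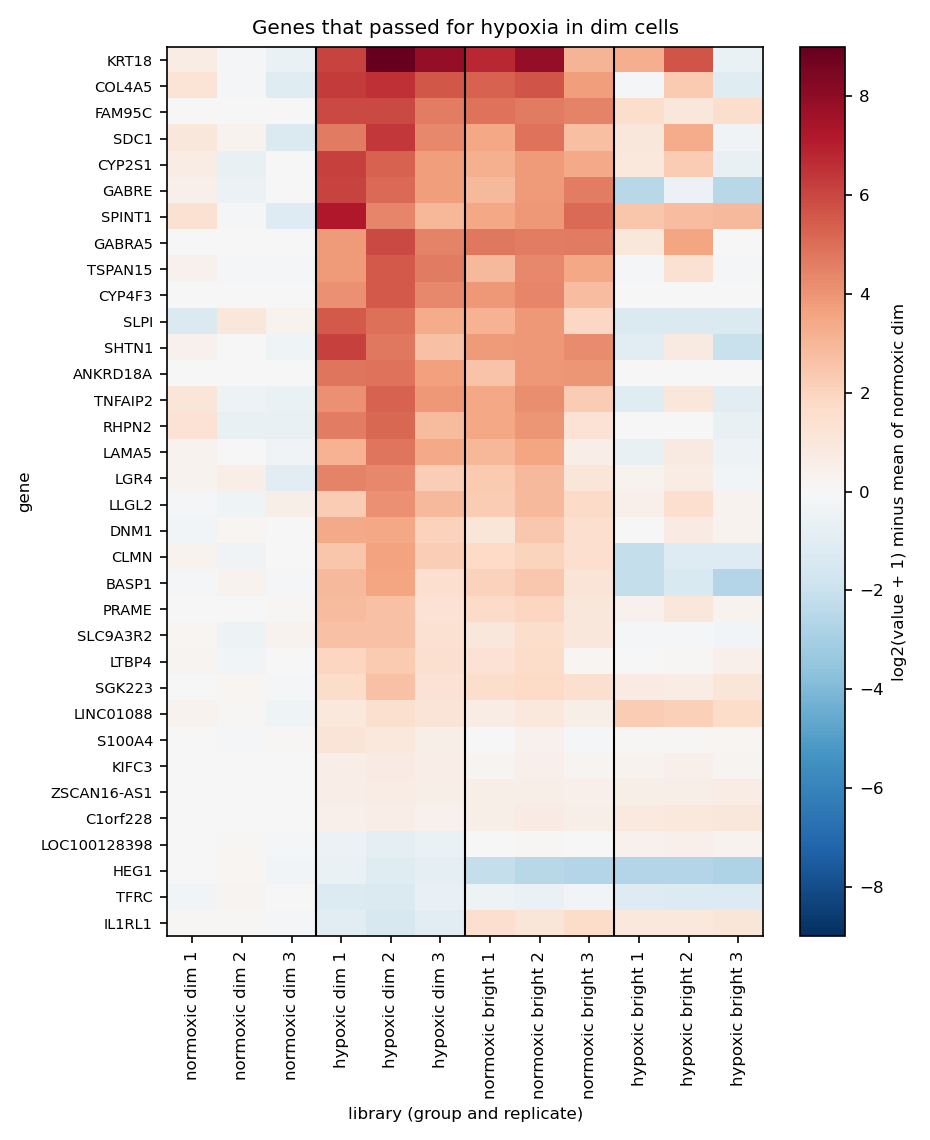
Heat map of 34 of the 35 genes that passed for hypoxia in dim cells, as log2 of the value plus 1 minus the mean of the normoxic dim libraries, with 1 column per library. Most of the 30 genes that rose in hypoxic dim cells were also above normoxic dim in normoxic bright cells and lower again in hypoxic bright cells, while KIFC3, S100A4, ZSCAN16-AS1 and C1orf228 show smaller shifts.

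The gene that fell from the highest level was TFRC, which encodes the transferrin receptor that brings iron into the cell. Its values were 32179, 43313 and 37181 in normoxic dim cells and 15923, 15360 and 23623 in hypoxic dim cells. Every hypoxic library lay below every normoxic one. TFRC fell by 1.06 ± 0.15 on the log2 scale, a 2.08-fold difference (limma, Benjamini-Hochberg adjusted p = 0.0165). It also fell in bright cells, by 0.77 ± 0.15 (adjusted p = 0.0334 in limma), where values went from 27347, 25184 and 31773 to 16888, 16073 and 16242. The effects in the 2 subsets differed by 0.28 ± 0.21, which did not pass the test of the difference (adjusted p = 0.459 in limma). TFRC is listed among genes that HIF can induce, and its fall is the opposite direction to that listing.

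TFRC lies on chromosome 3 at positions 196049284 to 196082161 of GRCh38. Of the other 15 tested members of the list of iron uptake and storage genes none passed in limma, and 4 of the 16 were lower at an unadjusted p under 0.05 (8.96% of all genes were). SLC11A2, the endosomal iron transporter that works beside transferrin receptor, was at 1441, 1489 and 1483 in normoxia and 1152, 1277 and 1318 in hypoxia, without overlap (log2 change -0.24 ± 0.08, adjusted p = 0.173 in limma). ACO1, the iron regulatory protein that binds TFRC messenger RNA when iron is scarce, was at 2504, 2739 and 2640 against 2344, 2228 and 2403 (-0.18 ± 0.07). HMOX1, the haem-degrading oxygenase, was at 1568, 465 and 810 in normoxia and 253, 245 and 259 in hypoxia, with an adjusted p of 0.22 in limma. The wide normoxic spread of HMOX1 followed the order of the skeletal muscle sum, and the part of those markers in it was not tested.

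IL1RL1, the receptor for interleukin-33, fell from 221, 222 and 184 to 106, 77 and 110. The log2 change was -1.10 ± 0.17 (limma, Benjamini-Hochberg adjusted p = 0.0263), the largest fall among the 5 genes. In bright cells it was at 604, 442 and 646 in normoxia and 401, 406 and 454 in hypoxia, and the bright change of -0.41 ± 0.17 did not pass (adjusted p = 0.278 in limma). HEG1, a membrane protein of cell junctions, fell from 4358, 4799 and 3452 to 2693, 1912 and 2408, a log2 change of -0.85 ± 0.16 (limma, Benjamini-Hochberg adjusted p = 0.0492). The long non-coding RNA LOC100128398 fell from 486, 516 and 424 to 327, 268 and 314 (-0.65 ± 0.11), and its effect differed from that in bright cells, where hypoxia gave 0.33 ± 0.11.

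Of 39 interferon response genes 30 had a fitted change below 0. At an unadjusted p under 0.05, 13 members were lower and 2 higher (8.96% and 8.48% of all genes were), and the list's median log2 change was -0.16 against 0.00 for all genes tested. GBP4, an interferon-induced guanylate-binding protein, was at 2317, 2580 and 2160 in normoxia and 1605, 1608 and 1895 in hypoxia (-0.47 ± 0.10, adjusted p = 0.0763 in limma). PARP14, an ADP-ribosyltransferase induced by interferon, was at 4753, 5400 and 4918 against 3865, 3750 and 4376 (-0.33 ± 0.07, adjusted p = 0.0926 in limma). GBP1 went from 3582, 2849 and 2529 to 2043, 2202 and 2296, and GBP2 from 3586, 2805 and 2512 to 2170, 2337 and 2235, with adjusted p-values of 0.127 and 0.146 in limma. All 4 of these genes had values that did not overlap between the groups. For 6 members the hypoxia effect was higher in bright than in dim cells by the test of the difference. Over all 15057 tested genes this held for 165. GBP4 and PARP14 were among the 6 members, and the list's bright median was 0.13.

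**Figure D3:**
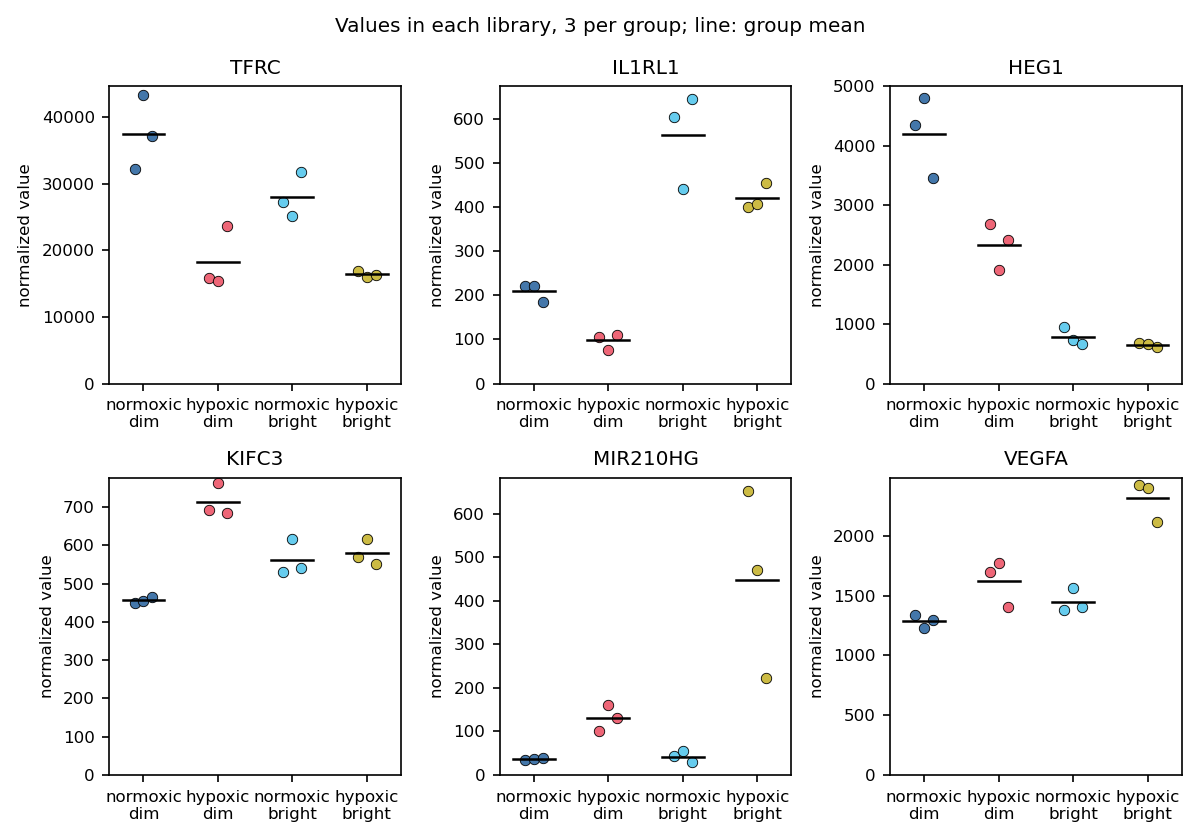
Normalized values of 6 genes in each library (points) with the group mean (line), 3 libraries per group, axes starting at 0. TFRC falls in both subsets, IL1RL1 and HEG1 are lower in hypoxic than in normoxic dim libraries, KIFC3 is higher in hypoxic dim, and MIR210HG and VEGFA are higher in hypoxic than in normoxic libraries of both subsets.

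Among the 30 genes that rose, a small set was well expressed in normoxic dim cells. KIFC3, a kinesin-like motor that moves toward microtubule minus ends, went from 450, 455 and 464 to 692, 762 and 684. The log2 change was 0.64 ± 0.09 (limma, Benjamini-Hochberg adjusted p = 0.0183), while bright cells gave 0.05 ± 0.09, and this difference passed (adjusted p = 0.0379 in limma). C1orf228 rose from 3065, 2930 and 3017 to 4064, 4541 and 3944, the smallest fold of the 30 at 1.39. S100A4, a calcium-binding protein of motile cells, rose from 638, 627 and 731 to 1492, 1310 and 967 (0.90 ± 0.16, adjusted p = 0.0435 in limma), with bright cells at 0.08 ± 0.16. ZSCAN16-AS1, an antisense RNA whose reads cannot be told from its partner's if strand was not used, rose from 170, 171 and 161 to 255, 271 and 238. In each of these 4 genes the 3 normoxic dim values lay close together and below every hypoxic dim value.

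LINC01088, a long non-coding RNA, rose in both subsets. It went from 196, 169 and 121 to 304, 437 and 363 in dim cells and from 250, 311 and 231 to 779, 694 and 500 in bright cells. The log2 changes were 1.19 ± 0.21 in dim and 1.30 ± 0.21 in bright cells (limma, Benjamini-Hochberg adjusted p = 0.0435 and 0.0161). It was the single gene of the 30 to pass as higher in bright cells as well.

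Most of the remaining genes that rose were near absent in normoxic dim cells, and 21 of the 30 had a normoxic dim mean under 30. COL4A5, a basement membrane collagen chain, went from 4, 1 and 0 to 164, 205 and 102, a log2 change of 6.14 ± 0.84 (limma, Benjamini-Hochberg adjusted p = 0.0155). In bright cells it was at 84, 110 and 28 in normoxia and 1, 10 and 0 in hypoxia, the opposite order. TNFAIP2 rose from 68, 22 and 20 to 562, 1262 and 473 (4.43 ± 0.63) and LAMA5, a laminin chain, from 97, 75 and 62 to 666, 2145 and 834 (3.77 ± 0.64). In both, hypoxic dim replicate 2 was the highest library, as it was for the airway epithelium sum.

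SDC1, a cell surface proteoglycan of epithelia and plasma cells, rose from 4, 2 and 0 to 63, 202 and 48, and LLGL2, a polarity protein of epithelia, from 11, 9 and 18 to 64, 229 and 99. DNM1, a dynamin best known from neurons, rose from 21, 28 and 25 to 267, 286 and 109 (3.00 ± 0.40, limma, Benjamini-Hochberg adjusted p = 0.0155). BASP1 rose from 27, 38 and 28 to 235, 371 and 89, PRAME, a cancer-testis antigen also found in leukaemias, from 25, 25 and 27 to 191, 166 and 65, and LTBP4, a latent TGF-beta binding protein, from 68, 47 and 55 to 217, 289 and 154. All 3 were lowest in hypoxic dim replicate 3 among the hypoxic libraries.

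The smallest adjusted p belonged to FAM95C, a non-coding RNA listed at 0 in all 3 normoxic dim libraries and at 60, 61 and 23 in hypoxia (adjusted p = 0.00328 in limma). It overlaps ANKRD18A on chromosome 9, itself at 0 in normoxia and at 27, 29 and 12 in hypoxia, so reads of the pair cannot be assigned with certainty. GABRA5 and CYP4F3 were also at 0 in all normoxic dim libraries, and no fold is given for these 4 genes. KRT18, the simple epithelial keratin, had the largest fitted fold at 207, from 11, 6 and 4 to 506, 4099 and 1781. KRT18 and SLPI, a secreted protease inhibitor, are members of the airway epithelium list. In it 14 of 15 tested members were higher at an unadjusted p under 0.05 (8.48% of all genes were), and the median log2 change was 4.70. The filter shaped this count. CDH1, at 0 in all normoxic dim libraries, entered through libraries where it was high, while KRT5, WFDC2, SCGB1A1, SCGB3A1 and SFTPB were too low to be tested. EPCAM, the epithelial adhesion molecule of the same list, was at 0, 1 and 1 in normoxia and 137, 75 and 20 in hypoxia (adjusted p = 0.0617 in limma). After 10 was added to each value, KRT18, SPINT1, CYP2S1, GABRE, SHTN1, RHPN2 and LGR4 had replicates of a dim group more than 4-fold apart.

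Of the 30 genes that rose in dim cells, 25 had a fitted fall in bright cells and 10 passed there as lower (0.359% of all genes did). For 26 the test of the difference between the subsets passed (2.36% of all genes did). That test holds the same dim effect by which the 30 genes were picked, so it is not separate support. The 2 subsets share no libraries. The airway epithelium sum was likewise higher in hypoxic dim libraries and, with overlap, lower in hypoxic bright ones. With the log2 sums of the airway, skeletal muscle and neutrophil lists as covariates no gene passed in limma, with 521 genes at an unadjusted p under 0.05. The airway and skeletal muscle sums did not themselves overlap between the dim groups, and the airway sum holds KRT18 and SLPI. This fit therefore cannot tell the oxygen level from the marker sums. Under those covariates COL4A5 had a fitted change of 3.09, DNM1 of 0.91 and TFRC of -0.69. The part of RNA from other cells in these genes was not tested beyond these values.

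Genes of the oxygen-sensing machinery did not pass. Of 11 components 10 were tested, HIF3A being too low, and none passed in limma. Of these 10, 4 were lower at an unadjusted p under 0.05 (8.96% of all genes were), and the median log2 change was -0.14. HIF1A was at 3547, 3823 and 3533 in normoxia and 2693, 3006 and 3865 in hypoxia, with overlap through hypoxic replicate 3 (-0.20 ± 0.11). EPAS1, the other main alpha subunit, was at 462, 408 and 413 against 268, 435 and 306 (-0.37 ± 0.16), and its partner ARNT at 1493, 1683 and 1691 against 1766, 1535 and 1586 (0.01 ± 0.08). Messenger RNA levels do not report on the protein, whose stability is what oxygen controls.

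Among the hydroxylases, EGLN1 was at 1172, 1254 and 1408 in normoxia and 1371, 1219 and 1542 in hypoxia (0.11 ± 0.13). EGLN2 was at 82, 114 and 75 against 73, 38 and 65, without overlap (-0.64 ± 0.26, adjusted p = 0.232 in limma). EGLN3, a HIF target in many cells, was at 27, 6 and 28 against 4, 271 and 43, where 1 hypoxic library, replicate 2, stood far above the others. HIF1AN, the asparagine hydroxylase that limits HIF activity, was at 2834, 3241 and 2720 against 2852, 2181 and 2342 (-0.26 ± 0.10), and VHL at 5264, 5209 and 5791 against 4797, 5042 and 5674 (-0.07 ± 0.07). CITED2, which competes with HIF for its coactivators, was at 1677, 1658 and 1540 against 1322, 1293 and 1477, without overlap (-0.25 ± 0.07, adjusted p = 0.143 in limma). ARNT2 stayed at 42 or below in every dim library.

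Of 40 further genes that HIF can induce, none rose by the test in dim cells (0.199% of all genes did) and TFRC fell (0.0332%). In bright cells 8 rose (0.478% of all genes did). The list's median log2 change was 0.05 in dim and 0.20 in bright cells, against medians of 0.00 over all tested genes in both. In dim cells 6 of the 40 members were higher and 4 lower without overlap, against 9.08% and 8.4% of all tested genes. The largest of the 6 higher differences was in MIR210HG, the host transcript of the hypoxia-induced microRNA miR-210, at 34, 37 and 38 in normoxia and 101, 161 and 130 in hypoxia. Its log2 change of 1.79 ± 0.34 just missed the threshold (limma, Benjamini-Hochberg adjusted p = 0.0587), against 3.29 ± 0.34 in bright cells, and the difference did not pass (adjusted p = 0.103 in limma). ANKRD37, a short ankyrin-repeat protein induced by HIF, was at 40, 24 and 49 against 88, 107 and 88 (1.35 ± 0.32, adjusted p = 0.0932 in limma), close to the 1.50 ± 0.32 of bright cells. VEGFA, the angiogenic growth factor, was at 1335, 1231 and 1294 against 1701, 1771 and 1405 (0.33 ± 0.10, adjusted p = 0.138 in limma), and at 0.67 ± 0.10 in bright cells.

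The promoters of MIR210HG, ANKRD37, DDIT4 and TFRC are shown because these genes had the clearest hypoxic values of the HIF-inducible lists in dim cells, a difference between the subsets that passed, or a fall that passed. They were chosen after their values were seen, since no member of the lists rose by the test. Each window runs from 250 bases before to 50 bases after the gene's RefSeq start in GRCh38.p14, 5′ to 3′ on the gene's strand. Capitals mark the HIF core ACGTG or GCGTG, or the overlap of both strands' ACGTG in CACGTG. The windows are chr11:568408-568707 on the minus strand for MIR210HG, chr4:185396591-185396890 on the plus strand for ANKRD37, chr10:72273674-72273973 on the plus strand for DDIT4 and chr3:196082041-196082340 on the minus strand for TFRC.
MIR210HG: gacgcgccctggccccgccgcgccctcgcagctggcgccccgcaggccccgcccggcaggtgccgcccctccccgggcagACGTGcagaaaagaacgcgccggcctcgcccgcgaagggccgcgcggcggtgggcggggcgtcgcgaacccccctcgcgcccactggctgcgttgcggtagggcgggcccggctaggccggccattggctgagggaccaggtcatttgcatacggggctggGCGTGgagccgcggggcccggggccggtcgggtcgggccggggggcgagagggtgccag
ANKRD37: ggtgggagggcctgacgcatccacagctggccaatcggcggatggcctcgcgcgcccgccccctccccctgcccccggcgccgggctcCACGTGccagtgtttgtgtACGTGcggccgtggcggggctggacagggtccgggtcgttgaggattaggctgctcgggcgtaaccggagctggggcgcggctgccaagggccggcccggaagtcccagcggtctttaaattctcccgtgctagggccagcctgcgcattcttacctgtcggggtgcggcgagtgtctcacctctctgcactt
DDIT4: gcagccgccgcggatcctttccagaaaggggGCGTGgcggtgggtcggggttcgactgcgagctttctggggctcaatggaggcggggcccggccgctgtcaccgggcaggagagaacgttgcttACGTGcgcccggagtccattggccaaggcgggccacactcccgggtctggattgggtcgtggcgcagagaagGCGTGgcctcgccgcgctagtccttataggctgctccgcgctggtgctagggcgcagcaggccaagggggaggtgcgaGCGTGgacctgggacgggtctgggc
TFRC: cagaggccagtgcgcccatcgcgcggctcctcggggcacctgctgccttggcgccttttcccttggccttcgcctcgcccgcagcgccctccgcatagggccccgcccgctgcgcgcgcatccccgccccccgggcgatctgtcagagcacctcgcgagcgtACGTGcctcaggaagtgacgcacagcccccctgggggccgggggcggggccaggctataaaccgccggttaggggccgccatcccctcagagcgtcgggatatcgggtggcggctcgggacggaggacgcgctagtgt
The core begins 170 and 9 bases before the start in MIR210HG, 161 and 143 bases before it in ANKRD37, 88 bases before it in TFRC, and in DDIT4 at 219, 125 and 53 bases before and 26 bases after it. Searched on both strands in windows of this length, ACGTG or GCGTG was present in 7978 of 11643 tested genes with a window (68.5%), in 23 of 24 glycolysis genes and in 29 of 31 of the further HIF-inducible genes. Of the genes that passed in dim cells, 12 of 23 that rose and 1 of 4 that fell held it. A core of 5 letters is common, and its presence is a description of the window, not a binding site.

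DDIT4, the stress protein that restrains mTOR signalling, was at 2267, 2289 and 2360 in normoxic dim cells and 2505, 3361 and 2415 in hypoxic ones. The groups did not overlap, hypoxic replicate 2 stood above the other hypoxic libraries, and the log2 change was 0.24 ± 0.20. In bright cells DDIT4 rose by 1.39 ± 0.20, and the difference between the subsets of 1.14 ± 0.28 passed (limma, Benjamini-Hochberg adjusted p = 0.0489). P4HA1, a collagen prolyl hydroxylase subunit, was at 1389, 1154 and 1174 against 1231, 1291 and 1403 (0.08 ± 0.18). It rose by 1.18 ± 0.18 in bright cells, and the difference passed (adjusted p = 0.041 in limma). FUT11 and ZNF395 had fitted changes of -0.33 ± 0.14 and -0.07 ± 0.09 in dim and 0.54 ± 0.14 and 0.50 ± 0.09 in bright cells, and both differences passed (adjusted p = 0.0401 and 0.0375 in limma).

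BNIP3 and BNIP3L, the mitophagy receptors, had smaller fitted changes in dim than in bright cells, without passing the test of the difference. BNIP3 was at 629, 541 and 604 against 661, 715 and 622 in dim cells (0.17 ± 0.21) and rose by 1.29 ± 0.21 in bright cells. BNIP3L was at 1572, 1366 and 1526 against 1694, 1848 and 2084 (0.33 ± 0.17), without overlap, and rose by 1.08 ± 0.17 in bright cells. ADM, the vasodilator peptide adrenomedullin, was at 316, 307 and 407 against 262, 470 and 385. The adjusted p-values of the difference for these 3 genes were 0.0608, 0.105 and 0.105 in limma.

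Other members followed single libraries. CA9, the membrane carbonic anhydrase often used as a hypoxia marker, was at 56, 1 and 20 against 20, 247 and 84, highest in the hypoxic library with the highest airway epithelium sum. LOX, a collagen cross-linking enzyme, was at 686, 112 and 346 against 33, 54 and 33, highest in normoxic replicate 1, where the fibroblast sum was also highest. CXCR4, the marrow homing receptor, was at 68, 69 and 38 against 332, 35 and 84, with hypoxic replicate 1 alone high. VLDLR was at 18, 2 and 1 against 126, 52 and 12, with overlap. The part of other cells' RNA in these values was not tested.

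**Figure D4:**
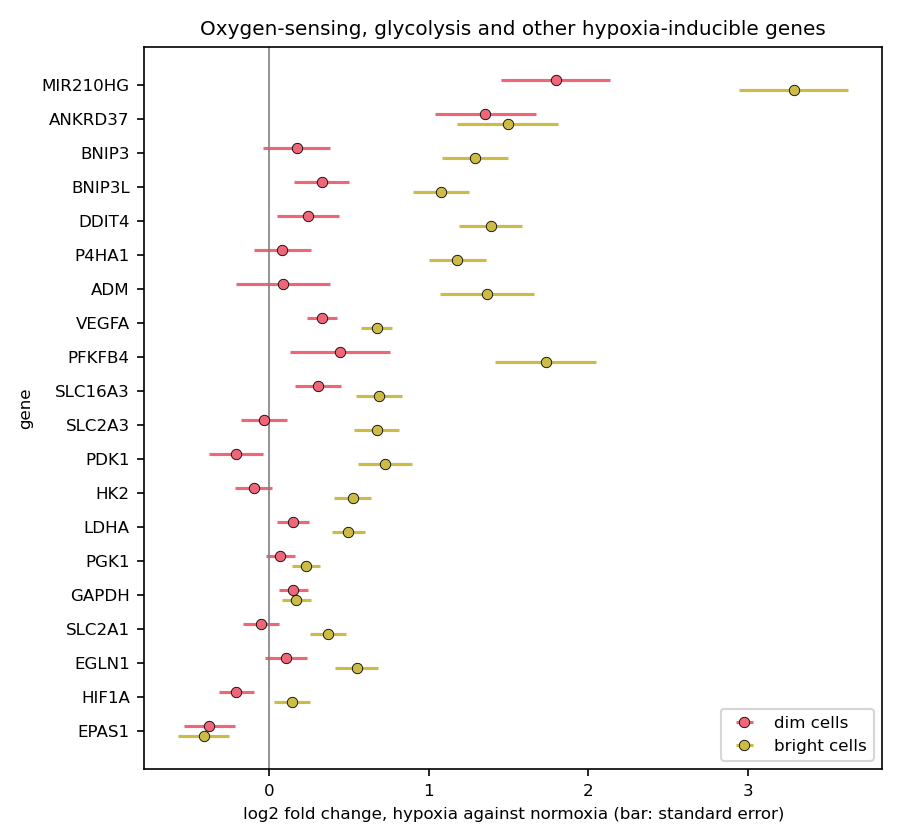
Log2 fold changes of hypoxia against normoxia with their standard errors for 20 oxygen-sensing, glycolysis and other hypoxia-inducible genes, in dim and in bright cells. MIR210HG and ANKRD37 lie above 1 in both subsets, while BNIP3, DDIT4, P4HA1, ADM and PFKFB4 lie above 1 in bright cells and between 0.08 and 0.44 in dim cells.

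Genes of glucose uptake and glycolysis had small fitted changes in dim cells. None of 25 members passed in limma, and 1 was higher and 1 lower at an unadjusted p under 0.05 (8.48% and 8.96% of all genes were). The median log2 change was 0.00, against 0.35 in bright cells, where 4 members rose (0.478% of all genes did). No member passed the test of the difference between the subsets. SLC2A1, the main glucose transporter, was at 2667, 2948 and 2710 against 2715, 2801 and 2513, and SLC2A3 at 2652, 2684 and 2653 against 2340, 2739 and 2751. LDHA, which turns pyruvate into lactate, was at 29644, 26863 and 25963 against 30210, 31451 and 29730, higher in hypoxia without overlap but by 0.15 ± 0.10. PDK1, the kinase that holds pyruvate back from mitochondria, was at 947, 976 and 992 against 676, 868 and 1009 (-0.21 ± 0.17), while bright cells gave 0.73 ± 0.17.

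ALDOC, a brain-type aldolase induced by HIF, had the largest fitted change of the list at 0.84 ± 0.26 (adjusted p = 0.155 in limma), from 95, 70 and 64 to 107, 174 and 134. PFKFB4, a regulator of glycolytic flux, was at 184, 226 and 229 against 250, 363 and 265 (0.44 ± 0.31), and rose by 1.73 ± 0.31 in bright cells. SLC16A3, the lactate exporter, was at 1952, 1734 and 1634 against 2647, 2131 and 1858 (0.31 ± 0.14). HK1, the constitutive hexokinase, was lower without overlap, at 5138, 5452 and 5088 against 5004, 4392 and 3940 (-0.24 ± 0.10), and HK2, the inducible one, was at 3853, 4539 and 4112 against 4216, 3744 and 3722. GAPDH and PGK1 differed by 0.15 ± 0.09 and 0.07 ± 0.09.

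No gene passed in limma in the lists of cytosolic ribosomal proteins, mitochondrially encoded transcripts, nuclear respiratory chain subunits and mitochondrial ribosomal proteins. All 45 tested cytosolic ribosomal protein genes had a fitted change above 0, 29 were higher at an unadjusted p under 0.05 (8.48% of all genes were), and the median was 0.20, against -0.01 in bright cells. RPS6 was at 46244, 39585 and 43241 against 57150, 57035 and 48102, without overlap (0.33 ± 0.09, adjusted p = 0.127 in limma), RPLP1 at 39201, 35392 and 37308 against 47288, 47683 and 39771 (0.26 ± 0.08), and RPL23 at 22357, 17966 and 20303 against 27574, 28318 and 22279 (0.36 ± 0.10). Hypoxic replicate 3 was the lowest hypoxic library in each of these 3 genes.

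All 13 mitochondrially encoded transcripts had a fitted change above 0, with a median of 0.27 in dim and -0.21 in bright cells. Of these, 7 were higher at an unadjusted p under 0.05 (8.48% of all genes were). ND3, a complex I subunit, was at 26611, 19970 and 22280 against 26602, 33671 and 31090 (0.41 ± 0.13, adjusted p = 0.15 in limma), and COX2, a complex IV subunit encoded in mitochondria, at 163830, 134554 and 142118 against 172081, 194422 and 169251 (0.28 ± 0.10). Of the nuclear respiratory chain subunits 40 of 44 tested had a fitted change above 0. At an unadjusted p under 0.05, 19 were higher and 1 lower (8.48% and 8.96% of all genes were). The median was 0.17, against -0.09 in bright cells. COX7C, a small subunit of complex IV, went from 3256, 2669 and 3010 to 4180, 3943 and 3590 (0.39 ± 0.09, adjusted p = 0.0926 in limma), and its effect was larger than in bright cells (adjusted p = 0.0467 in limma). NDUFA3 was at 1169, 1017 and 944 against 1284, 1467 and 1247 (0.35 ± 0.10). The lower member was NDUFA4L2, the subunit that HIF induces in other cells. It was low throughout and fell without overlap, at 40, 12 and 9 against 3, 3 and 2 (-2.265 ± 0.978). Of 31 mitochondrial ribosomal protein genes 28 had a fitted change above 0, with a median of 0.09. The number of fitted changes above 0 over all tested genes was 7610 of 15057.

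**Figure D5:**
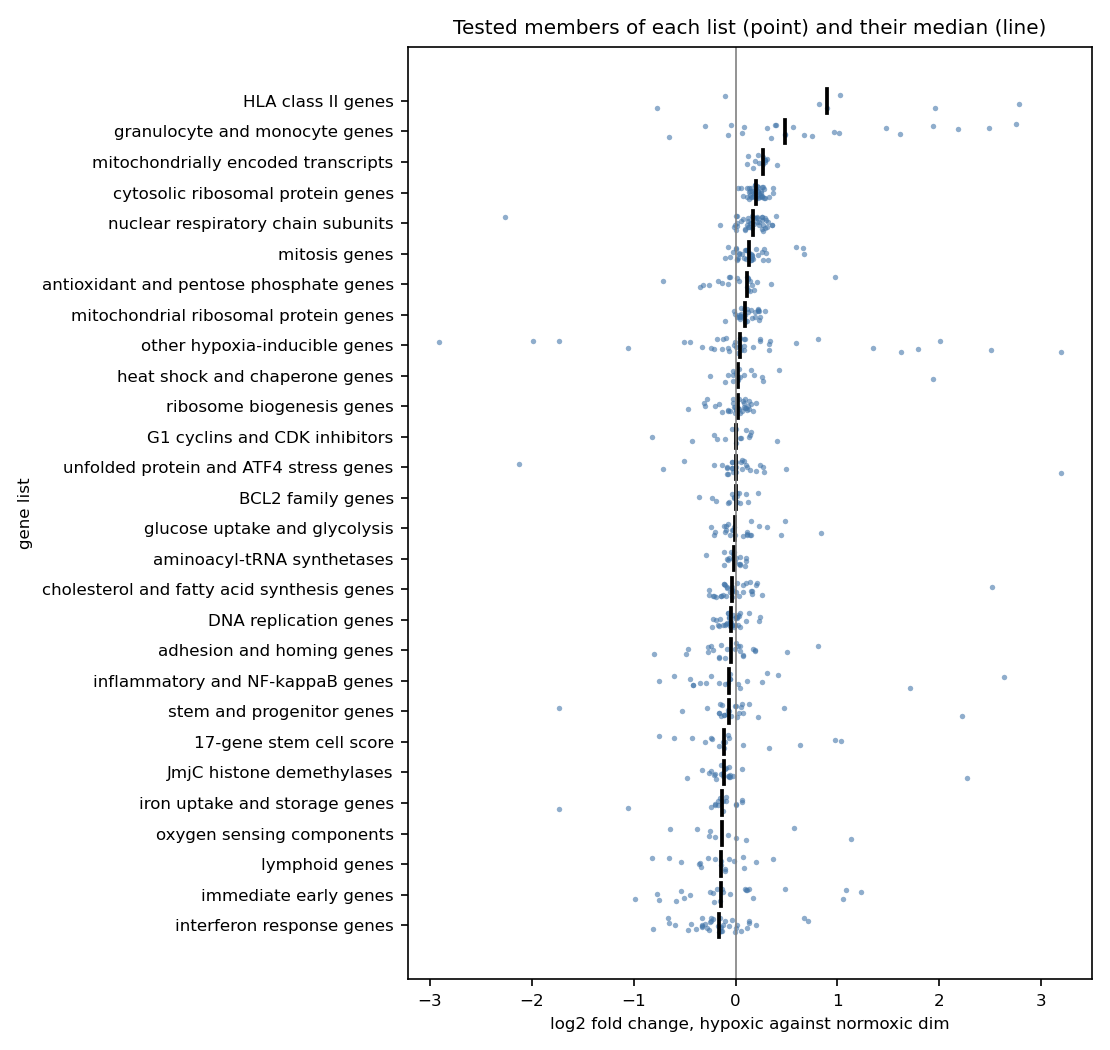
Log2 fold change of hypoxic against normoxic dim cells for each tested member (points) of 28 gene lists, with the list's median (line). Cytosolic ribosomal protein genes and mitochondrially encoded transcripts lie wholly above 0, glycolysis genes centre on 0, and the interferon response list has the lowest median at -0.16.

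Histone demethylases of the JmjC family use oxygen as a substrate. Of 22 members 20 had a fitted change at or below 0, none passed in limma, 7 were lower at an unadjusted p under 0.05 (8.96% of all genes were), and 9 were lower without overlap (8.4% of all genes were). KDM5A, which removes methyl groups from histone H3 lysine 4, was at 2407, 3268 and 2633 in normoxia and 2098, 1769 and 2068 in hypoxia (-0.48 ± 0.13, adjusted p = 0.128 in limma). In bright cells it had a fitted change of 0.37 ± 0.13, and the difference passed (adjusted p = 0.035 in limma). KDM6A, an H3 lysine 27 demethylase, was at 954, 1186 and 1048 against 886, 687 and 971 (-0.33 ± 0.12). The list's median was -0.11 in dim and 0.11 in bright cells.

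Among 22 tested inflammatory and NF-kappaB genes none passed in limma, and the median was -0.07. At an unadjusted p under 0.05, 5 were lower and 2 higher (8.96% and 8.48% of all genes were). REL, the c-Rel subunit, was at 513, 697 and 642 against 389, 281 and 435, without overlap (-0.76 ± 0.15, adjusted p = 0.0679 in limma), and its effect differed from that in bright cells (adjusted p = 0.0201 in limma). SOD2, the mitochondrial superoxide dismutase, was at 3358, 3432 and 3229 against 2503, 2561 and 2805 (-0.35 ± 0.07, adjusted p = 0.0713 in limma). NFKB1 was at 3422, 4452 and 4131 against 3603, 2994 and 3192, with overlap. IL1B, the secreted cytokine, was at 1146, 1198 and 1143 against 1240, 1568 and 1399 (0.26 ± 0.09).

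SLC7A11, the cystine importer that feeds glutathione synthesis, was at 2408, 3152 and 3106 in normoxia and 1359, 1725 and 2278 in hypoxia (-0.71 ± 0.17, adjusted p = 0.0932 in limma). TXNRD1, thioredoxin reductase, was at 10213, 11388 and 10564 against 8351, 8174 and 9294 (-0.32 ± 0.07, adjusted p = 0.0926 in limma). Both belong to the antioxidant list, where none of 23 members passed in limma and the median was 0.11. At an unadjusted p under 0.05, 4 members were lower and 1 higher (8.96% and 8.48% of all genes were). HSPE1, the mitochondrial co-chaperonin, was higher without overlap, at 3128, 2297 and 2645 against 3375, 3553 and 3833 (0.42 ± 0.12, adjusted p = 0.138 in limma).

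Adhesion genes held 2 integrin subunits with clearly separate groups. ITGB3 was at 757, 1270 and 877 in normoxia and 591, 515 and 519 in hypoxia (-0.80 ± 0.17, adjusted p = 0.0713 in limma), and differed from bright cells, where it was 0.40 ± 0.17 (adjusted p = 0.0232 in limma). ITGA6 was at 2339, 2799 and 2480 against 1636, 1714 and 2202 (-0.46 ± 0.10, adjusted p = 0.0926 in limma). Outside the adhesion list, VWF, an adhesive protein of the endothelial list also made by megakaryocytes, was at 449, 590 and 472 against 364, 303 and 229 (-0.77 ± 0.16, adjusted p = 0.0713 in limma). VCAN, a matrix proteoglycan from the granulocyte and monocyte list, was at 1509, 1857 and 1230 against 1002, 938 and 949 (-0.65 ± 0.14, adjusted p = 0.0842 in limma). None of 24 tested genes of the adhesion and homing list itself passed in limma. At an unadjusted p under 0.05, 5 were lower and 2 higher (8.96% and 8.48% of all genes were).

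Stem cell and lineage genes mostly overlapped. None of the 17 genes of the stem cell score and none of 25 tested stem and progenitor genes passed in limma. At an unadjusted p under 0.05, 2 were higher and 3 lower in each list (8.48% and 8.96% of all genes were). SMIM24 was at 3772, 3625 and 3918 against 4301, 5394 and 4580 (0.33 ± 0.08), and in bright cells it rose by the test. CDK6, a G1 kinase of that score, was at 20593, 26429 and 23065 against 15085, 16158 and 21064 (-0.43 ± 0.13), DNMT3B, a DNA methyltransferase, at 11946, 13626 and 12854 against 10823, 10754 and 10835 (-0.24 ± 0.08), and ADGRG1 at 2447, 2637 and 2302 against 2016, 2201 and 1804 (-0.30 ± 0.10). CD109 was at 4404, 6139 and 6134 against 3245, 3508 and 4908 (-0.52 ± 0.16), with an effect that differed from bright cells (adjusted p = 0.0495 in limma).

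Granulocyte and monocyte genes had a median of 0.49. After 10 was added to each value, 11 of 23 tested members were more than 4-fold apart between replicates of a dim group (4.36% of all genes were). At an unadjusted p under 0.05, 3 members were higher and 1 lower (8.48% and 8.96% of all genes were). VCAN, given above, fell and had the smallest adjusted p of the list (0.0842 in limma). SPI1, the myeloid factor PU.1, was at 367, 370 and 421 against 1762, 536 and 455, and CSF3R, the G-CSF receptor, at 651, 675 and 700 against 1540, 808 and 796. Hypoxic replicate 1, the library with 7043 for PRTN3, was the highest in both. HLA-DMB was at 1, 6 and 7 against 32, 49 and 21 and did not pass (adjusted p = 0.131 in limma). No member of the granulocyte and monocyte list or of the HLA class II list passed in limma.

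Mitosis genes lay mostly above 0. Of 35 mitosis genes 31 had a fitted change above 0, with a median of 0.13, and none passed in limma. At an unadjusted p under 0.05, 5 were higher (8.48% of all genes were). PTTG1, the securin that holds sister chromatids together, was at 785, 684 and 664 against 1582, 1044 and 854 (0.66 ± 0.17, adjusted p = 0.115 in limma), and HMMR at 340, 300 and 239 against 672, 365 and 407 (0.68 ± 0.21), both highest in hypoxic replicate 1. Of 39 DNA replication genes 12 had a fitted change above 0, with a median of -0.04. MYC was at 24703, 27317 and 25607 against 22894, 22286 and 21747, without overlap (-0.21 ± 0.07, adjusted p = 0.154 in limma), and CDKN1A, the CDK inhibitor p21, at 1210, 593 and 658 against 489, 438 and 397 (-0.82 ± 0.33). No member passed in the lists of DNA replication, immediate early genes, G1 cyclins and CDK inhibitors, unfolded protein and ATF4 stress genes, heat shock and chaperones, ribosome biogenesis, aminoacyl-tRNA synthetases, cholesterol and fatty acid synthesis, BCL2 family or lymphoid genes in limma, and their medians lay between -0.14 and 0.02.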

How the data were processed

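Per the submitters' processing notes, Trimmomatic 0.39 trimmed the paired mRNA reads and STAR 2.4.2a aligned them to GRCh38. Which tool counted reads, with which annotation and strand setting, is not given in the sources used here. The deposited value is a score, a normalized and rounded read count. In the dim libraries the spacing of the whole numbers gave a scaling factor for each library and the estimated depth. How these factors were found was not tested. As the values are not raw counts, a count test, planned for raw counts, was not used.

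The model was limma 3.58.1 (R 4.3.3) on log2 of the value plus 1, with a mean trend, the 4 group means as coefficients and all 12 libraries in the fit (8 residual degrees of freedom). Genes passed at a 2-sided Benjamini-Hochberg adjusted p under 0.05 over 15057 genes, and 13338 were not tested. An exact permutation test of 3 against 3 cannot go below p = 0.1 and was not used. On simulated data with 200 changed genes of 15057, 67% of 2-fold and 88% of 4-fold changes in dim cells were recovered, with 9 false calls. The simulated noise had each gene's own mean and spread but was independent between genes. The real libraries share differences in marker sums, so these figures may not carry over to them. Replicate libraries differed by more than sampling noise (chi-square of 10.8 to 52.6 per gene). All 12 libraries carry 1 batch label.

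The members, 28 gene lists and 8 marker lists were chosen with earlier results of these data known. Named by rule were the sort markers, the oxygen-sensing and hypoxia-inducible genes, list members that passed, and up to 10 passing genes per direction with the largest change, a group mean of at least 100, no overlap and replicates within 4-fold. LOC100128398, the other genes that rose outside this rule and list members that did not pass were chosen after their values were seen. Some results are not reported here. Promoters are those of RefSeq in GRCh38.p14. Alternatives were another rescaling, no trend, other filters and pseudocounts, array weights, dim libraries alone, the replicate number as a block and each library left out. Added after the data were seen were leaving out 2 libraries, marker sums as covariates and leaving out genes with replicates more than 4-fold apart. Each 4-fold limit between replicates was applied after 10 was added to each value.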

Additional observations from a re-analysis of the deposited data

Results flagged for a closer look

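The effect of hypoxia differed between bright and dim cells, by limma's test of the difference at an adjusted p under 0.05, in 44 of the genes named above or drawn in the heat map, and each value below is the log2 effect in bright cells minus that in dim cells, except for 5 genes listed at 0 in all libraries of a group, for which the adjusted p is given and no size. With marker sums as covariates 3 genes in all passed this test, against 355 without. The airway and skeletal muscle sums did not overlap between the dim groups, so that fit cannot tell the oxygen level from the sums. Genes named because they passed in dim cells were picked by the dim effect that this difference also holds.

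Large negative differences were in genes of epithelia or of low level in normoxic dim cells. They were -11.12 for MUC5B, -10.83 for KRT18, -10.67 for COL4A5, -10.61 for GABRE, -9.21 for SHTN1, -8.83 for KRT8, -8.12 for TNFAIP2 and -8.06 for EPCAM. Further values were -7.89 for TSPAN15, -7.68 for CYP2S1, -7.46 for SDC1, -7.36 for VLDLR, -7.33 for RHPN2, -6.63 for BASP1, -6.30 for SPINT1, -6.27 for LAMA5, -6.03 for CLMN and -5.53 for LGR4. LLGL2 stood at -4.66, DNM1 at -4.34, SLC9A3R2 at -3.62, PRAME at -3.24, LTBP4 at -2.71 and SGK223 at -2.67. The 5 genes listed at 0 in a group also had a lower hypoxia effect in bright than in dim cells, with adjusted p-values in limma of 0.000377 for FAM95C, 0.00295 for CYP4F3 and for SLPI, 0.00448 for ANKRD18A and 0.00949 for GABRA5. PRTN3, at 7043 in hypoxic dim replicate 1 and at most 92 in the other dim libraries, had -8.97.

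Smaller negative differences, in genes of steadier level, were -0.60 for KIFC3 and -0.52 for COX7C. Genes whose hypoxia effect was higher in bright than in dim cells were the interferon genes PARP14 (0.45) and GBP4 (0.85), the HIF-inducible genes ZNF395 (0.56), FUT11 (0.87), P4HA1 (1.10) and DDIT4 (1.14), the histone demethylase KDM5A (0.85), the NF-kappaB subunit REL (1.17), and CD109 (0.94), LOC100128398 (0.98), VWF (1.05) and ITGB3 (1.21).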

How the results depend on the processing

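The number of genes that passed depended on the processing. All 35 kept their sign in every alternative in which they were tested, and 286 of their 610 values under alternatives still passed. Their values did not overlap between the dim groups, so leaving out libraries or changing the filter, trend or pseudocount could not turn the sign. The 30 higher and 5 lower genes (35 in all) became 8 and 1 (9) without the mean trend, 8 and 4 (12) with a mean of at least 50, 10 and 2 (12) with a pseudocount of 0.1, 18 and 4 (22) with a pseudocount of 10, 9 and 4 (13) with the dim libraries alone, and 20 and 9 without a filter. Array weights gave 1303 and 1403 (2706). Upper quartile rescaling gave 31 and 4, shifted the median of all genes from 0.00 to 0.03 and moved the glycolysis and aminoacyl-tRNA synthetase medians from just below to just above 0. Leaving out a dim library gave 0 to 302 higher and 0 to 335 lower genes (0 to 637), the lowest without hypoxic dim replicate 2 and the highest without hypoxic dim replicate 3. Leaving out 2 libraries or adding marker sums as covariates gave 0 in limma, and leaving out genes with discordant replicates gave 33 and 17. The 355 genes with a difference between the subsets became 43 without the trend, 164 at a mean of at least 50, 162 with a pseudocount of 10, 4810 with array weights, 51 to 1520 with a library left out, 149 without 2 libraries and 3 with marker covariates. The cause was not tested.

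With the replicate number as a block 50 genes were higher and 10 lower (60), and 34 of the 35 were among them. Same-numbered dim libraries had correlations of deviations of 0.0659, -0.139 and 0.17, and differently numbered ones lay between -0.312 and 0.211. The labels do not say whether the numbers pair the samples, and these few values cannot decide it.

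The fitted sign turned in 22 genes that had not passed. The fit with marker sums cannot tell the oxygen level from the airway and skeletal muscle sums, which did not overlap between the dim groups. With marker sums as covariates the log2 change became 0.0094 for CD34, 0.28 for CLEC12A, -0.13 for EGLN1, -1.43 for EGLN3, 0.0431 for VHL, -0.64 for PFKFB4, -0.0994 for SLC16A3, -0.0541 for VEGFA, -0.56 for ADM, -0.47 for BNIP3, -0.0563 for BNIP3L, -0.54 for DDIT4, -0.0995 for P4HA1, 1.36 for HMOX1, -1.21 for MPO and -0.26 for EPCAM. With array weights it became -0.0704 for ARNT, -0.0587 for EGLN1, 0.0015 for SLC2A1, 0.0114 for SLC2A3, 0.0003 for ZNF395 and -0.49 for MPO. CLEC12A reached 0.0166 under upper quartile rescaling and 0.0333 with a pseudocount of 10. Without 2 libraries CLEC12A was at 0.73, ARNT at -0.0115 and ADM at -0.15. Leaving out 1 library gave -0.59 to 0.43 for CLEC12A, -0.0539 to 0.0472 for ARNT, -0.0809 to 1.13 for ARNT2, -0.27 to 2.62 for EGLN3, -0.0729 to 0.0438 for SLC2A3, -0.10 to 0.32 for ADM, -0.0514 to 1.55 for CXCR4 and -0.36 to 3.68 for MPO. The cause was not tested. The dim libraries held an estimated 27100000 to 39500000 counted reads. The median standard error of a log2 change, 0.13, sets how small a difference could pass.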
